A study of Mus musculus with 6 samples.

Results

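The insulin-like growth factor (IGF) axis was followed in wild-type embryonic mouse pancreata through 10 genes, a list set by gene name: the ligand *Igf1*, the receptors *Igf1r* and *Insr*, the binding proteins *Igfbp2* to *Igfbp7* and the protease *Pappa*. The imprinted genes *Igf2* and *Igf2r* of the same axis were left out of this list. All 10 were matched by Ensembl identifier among the 37224 genes of the deposited table. Expression was measured by RNA Seq of poly(A) RNA in 3 independent samples at 13.5 days post coitum (dpc) and 3 at 15.5 dpc, all wild type of strain C57/Bl6J. Each sample was a pool of the whole pancreata of up to 3 embryos, and p-values measure the spread between these pools. In these whole organs epithelium, mesenchyme, vessels and blood were measured together, so that fewer cells of a type cannot be told apart from less RNA per cell.

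IGF-I binds the receptor tyrosine kinase encoded by *Igf1r*, and more weakly the insulin receptor encoded by *Insr*, and signals through receptor substrates to the PI3K-AKT and MAPK cascades that drive growth and survival. Secreted IGF-binding proteins hold IGFs in the extracellular space, where they limit or prolong access to the receptors, and the metalloproteinase PAPP-A cleaves some of them, among them IGFBP-4, to free the ligand. In the embryonic pancreas IGFs and their binding proteins are known mainly as signals of the mesenchyme and vessels around the growing epithelium. *Igfbp7* encodes a related matrix protein that binds IGFs only weakly.

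Total counts were 12895732 to 16389237 at 13.5 dpc and 10546028 to 12491550 at 15.5 dpc. The markers of pancreas were present in all samples, and mean normalised counts of *Pdx1* were 1225 at 13.5 dpc and 1361 at 15.5 dpc. The samples of 15.5 dpc differed among themselves by gene length. The log2 difference between 15.5 dpc replicates 1 and 2 fell with exon length across the genes tested (Spearman rho = -0.588 across genes, which are not independent replicates), whereas between 13.5 dpc replicates 1 and 2 rho was -0.0289. For the 10 genes, fold changes are given below also without single samples or with the length trend removed, and for the other genes of the axis as ranges, whereas levels and shares at 15.5 dpc were not adjusted for it.

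Of the 10 genes, *Igfbp5* and *Igfbp4* fell and *Igfbp7* and *Igfbp6* rose from 13.5 to 15.5 dpc at an adjusted p at or below 0.05 (edgeR's quasi-likelihood test, Benjamini-Hochberg adjustment over the 15578 genes tested). That is 4 of 10 genes, where 22.3% of all genes tested passed. In each direction 2 genes passed, against a background of 11.6% higher and 10.7% lower. By mean level per length, *Igfbp5* was second of the list at both stages. At 15.5 dpc its mean was close to those of *Igfbp2* and *Igfbp3*, with replicate 1 below both genes and replicate 2 above both. *Igfbp7* rose 2.42-fold in normalised counts. *Igf1*, *Igf1r*, *Insr*, *Igfbp2*, *Igfbp3* and *Pappa* did not pass. The median log2 fold change was -0.16 over the 10 genes and -0.01 over all genes tested. The study's methods set other limits, namely a false discovery rate of 0.1, a level above 100 normalised counts at one of the stages and a ratio under 0.6 or over 1.6. By these limits *Igfbp7* and *Igfbp6* were higher (2 genes, background 6.47% of protein-coding genes) and *Igfbp5* was lower (1 gene, background 3.9%). For 6 of the 10 genes no sample of one stage lay within the range of the other, against 46.4% of all genes tested.

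**Figure D1:**
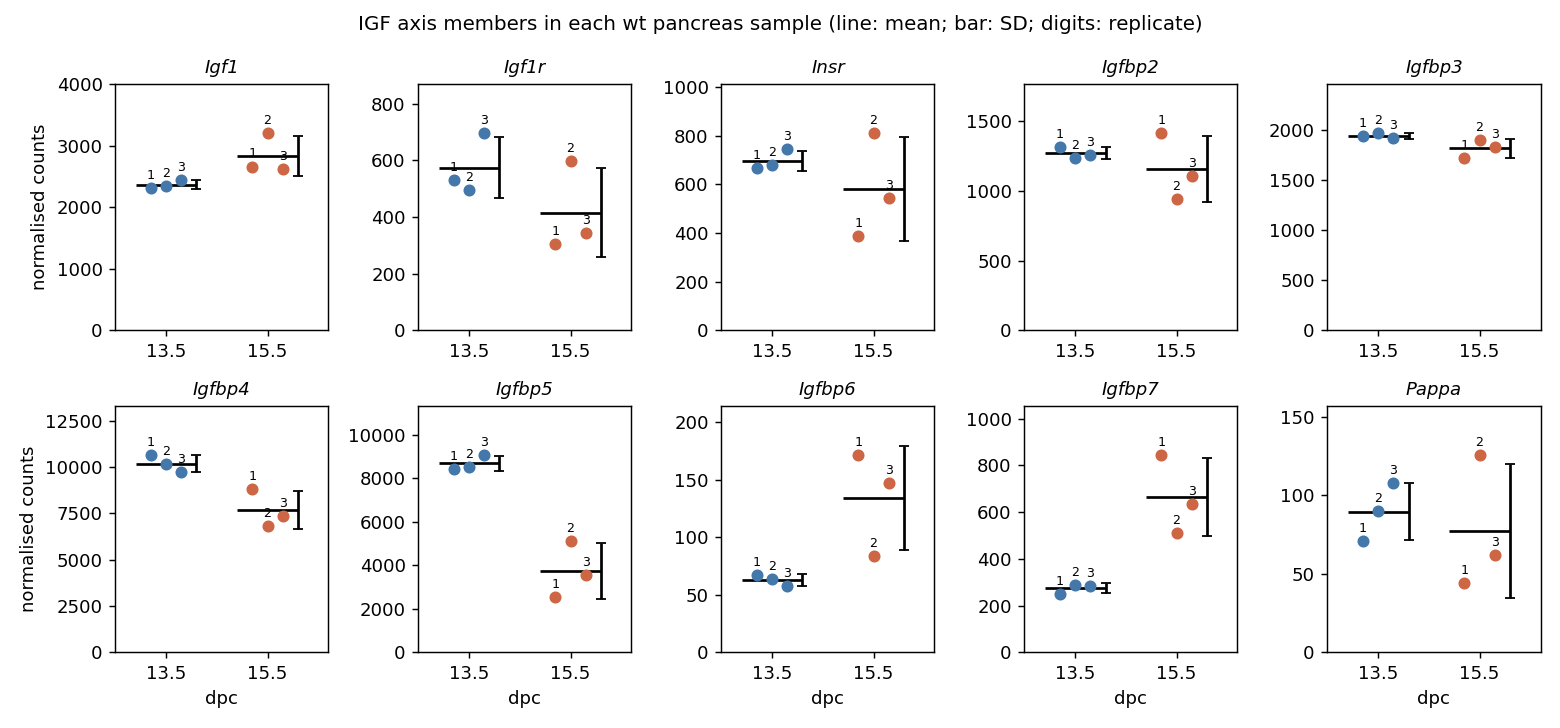
Normalised counts (vertical axes, from 0) of the 10 genes in each sample at 13.5 dpc (blue) and 15.5 dpc (orange); digits give the replicate number, lines the mean and bars the SD of 3 samples. *Igfbp4* and *Igfbp5* lie lower and *Igfbp6* and *Igfbp7* higher in every 15.5 dpc sample than in every 13.5 dpc sample.

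The 5′ regions of the 4 genes that passed are shown because their transcripts moved in opposite directions. They run from 250 bases before to 50 bases after the annotated start (RefSeq, GRCm38.p6, the assembly of mm10). Of the 10 genes, 8 had an entry, with 9 start sites. Capitals mark TATAAA (the core of a promoter element near the start) and CANNTG (an E-box), each searched on both strands; the forkhead motif GTAAACA was searched too and found in none of the 4.
Igfbp4, chr11:99040994-99041293, plus strand: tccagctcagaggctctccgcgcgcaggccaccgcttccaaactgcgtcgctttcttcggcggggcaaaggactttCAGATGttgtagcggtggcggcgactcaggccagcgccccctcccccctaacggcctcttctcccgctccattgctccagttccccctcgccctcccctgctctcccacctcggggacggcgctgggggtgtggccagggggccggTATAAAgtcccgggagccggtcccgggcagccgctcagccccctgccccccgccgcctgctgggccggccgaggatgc
Igfbp5, chr1:72874816-72875115, minus strand: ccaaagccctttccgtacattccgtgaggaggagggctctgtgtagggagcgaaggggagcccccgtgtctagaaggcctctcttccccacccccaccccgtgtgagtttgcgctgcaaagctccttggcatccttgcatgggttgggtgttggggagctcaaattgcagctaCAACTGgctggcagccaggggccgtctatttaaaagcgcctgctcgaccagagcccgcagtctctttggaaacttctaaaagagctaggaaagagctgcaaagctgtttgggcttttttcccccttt
Igfbp6, chr15:102143936-102144235, plus strand: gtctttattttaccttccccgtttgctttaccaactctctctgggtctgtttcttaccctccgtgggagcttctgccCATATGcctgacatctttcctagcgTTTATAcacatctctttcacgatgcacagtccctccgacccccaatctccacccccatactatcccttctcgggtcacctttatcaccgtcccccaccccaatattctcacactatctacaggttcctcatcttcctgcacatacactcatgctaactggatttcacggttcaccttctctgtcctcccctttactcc
Igfbp7, chr5:77407996-77408295, minus strand: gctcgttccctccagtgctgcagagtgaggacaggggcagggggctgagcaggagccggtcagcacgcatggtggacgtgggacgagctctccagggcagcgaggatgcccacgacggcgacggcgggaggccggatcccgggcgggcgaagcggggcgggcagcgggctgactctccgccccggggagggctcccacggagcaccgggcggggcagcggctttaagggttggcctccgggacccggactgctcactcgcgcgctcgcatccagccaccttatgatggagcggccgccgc

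The *Igfbp4* window holds TATAAA 28 bases before the start and 1 E-box, and the *Igfbp6* window holds TATAAA on the opposite strand and 1 E-box. The *Igfbp5* window holds 1 E-box and no TATAAA, and that of *Igfbp7* holds neither. TATAAA occurs in 13.6% and CANNTG in 72.3% of the 32851 windows of this length in the table. The GC box GGGCGG, not marked and counted on both strands, occurs 4 times in the *Igfbp7* window and in none of the other 3, and at least once in 35.7% of all windows. The GC content of the windows was 71.3%, 56.3%, 49.7% and 73.3% for *Igfbp4*, *Igfbp5*, *Igfbp6* and *Igfbp7*, respectively. These matches are a description of the letters. The 2 genes that fell shared an E-box, which most windows hold, and the 2 that rose shared none of these motifs.

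*Igf1*, on chromosome 10 of mm10 from 87858265 to 87937042, encodes the ligand IGF-I, which in the embryo acts largely within the tissue that makes it. Values are given in the order of replicates 1, 2 and 3, as counts scaled by TMM to a common library size. *Igf1* had 2306, 2347 and 2449 normalised counts in the younger pancreata and 2663, 3209 and 2622 in the older. The stages did not overlap, and the difference was small. The log2 fold change was 0.26 (standard error, SE, 0.11, edgeR adjusted p = 0.117), which did not pass. The value depended on the processing. It was 0.05 (adjusted p = 0.783) with library size only and 0.17 (adjusted p = 0.129) without 15.5 dpc replicate 2. Without 15.5 dpc replicate 1 the value was 0.30 (adjusted p = 0.0472), and with each library's trend with gene length removed it was 0.55 (adjusted p = 0.0046). *Igf1* has 9904 exon bases and is among the longest of the 10 genes. With the trend removed, its log2 difference of 15.5 dpc replicate 1 from replicate 2 went from -0.27 to 0.35, so these samples did not come closer.

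*Igf1r*, on chromosome 7 from 67952859 to 68226780, encodes the receptor for IGF-I. The 13.5 dpc samples had 532.1, 493.9 and 696.8 normalised counts, the 15.5 dpc samples 305.8, 596.2 and 345.0. Replicates 1 and 3 of 15.5 dpc lay below all samples of 13.5 dpc, whereas replicate 2 lay among them. The log2 fold change was -0.46 (SE 0.26, edgeR adjusted p = 0.229), and -0.81 (adjusted p = 0.00496) without 15.5 dpc replicate 2. It was -0.28 (adjusted p = 0.381) without 15.5 dpc replicate 1, -0.30 (adjusted p = 0.531) without 13.5 dpc replicate 3 and -0.38 (adjusted p = 0.216) with the length trend removed. The deposited model of *Igf1r* holds 4489 exon bases, which is 26.7% of the 16791 bases of the gene's exons in GENCODE M21. Reads on the remaining exon bases are not in its count, and the length trend was removed at the deposited length.

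*Insr*, on chromosome 8 from 3150922 to 3279617, encodes the insulin receptor, which forms dimers with itself and hybrids with the IGF-I receptor. The 13.5 dpc samples had 665.2, 680.8 and 744.2 normalised counts, the 15.5 dpc samples 387.5, 810.9 and 542.7. As for *Igf1r*, 15.5 dpc replicates 1 and 3 were the lowest of the 6 samples, and replicate 2 was here the highest. *Insr* differed by -0.26 on the log2 scale (SE 0.24, edgeR adjusted p = 0.447). The difference was -0.57 (adjusted p = 0.0134) without 15.5 dpc replicate 2, -0.04 (adjusted p = 0.885) without replicate 1 of that stage and -0.02 (adjusted p = 0.909) with the length trend removed. It was -0.45 (adjusted p = 0.256) with library size only.

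The balance of the receptors was compared within each sample, which needs no scaling between libraries but can still differ with gene length. The ratio of *Igf1r* to *Insr* in TPM, counts per exon base expressed as a share of the sample's transcripts, was 1.72, 1.56 and 2.01 in the younger and 1.69, 1.58 and 1.36 in the older pancreata. *Igf1r* exceeded *Insr* per length in all 6 samples. The mean log2 ratio was 0.81 ± 0.19 at 13.5 dpc and 0.62 ± 0.16 at 15.5 dpc (SD, n = 3 samples each), a difference of -0.19 that did not exceed the spread of the samples (exact permutation test, two-sided, p = 0.3, where 3 samples against 3 cannot go below 0.1). The difference was -0.27 to -0.09 when each sample was left out, and -0.38 (exact permutation test, two-sided, p = 0.2) with the length trend of each library removed, an alternative chosen after seeing the data. The ratio and the removal of the length trend both use the deposited exon lengths. These are 26.7% of the M21 length for *Igf1r* and 70.1% for *Insr*. With the trend removed, the log2 difference of 15.5 dpc replicate 1 from replicate 2 went from -0.96 to -0.80 for *Igf1r* and from -1.06 to -0.46 for *Insr*. Whether the removal suits *Igf1r* was not tested.

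*Igfbp5*, on chromosome 1 from 72857932 to 72874884, encodes a binding protein that also attaches to the extracellular matrix. The 13.5 dpc samples had 8451, 8531 and 9076 normalised counts, the 15.5 dpc samples 2559, 5101 and 3537. Every 15.5 dpc sample lay far below the 13.5 dpc samples, with replicate 1 the lowest and replicate 2 the highest of that stage. The mean fell from 8686 ± 340.3 to 3732 ± 1282 normalised counts (SD, n = 3 per stage), a change of -1.22 on the log2 scale (SE 0.23, edgeR adjusted p = 0.0109) or 2.33-fold lower. The log2 fold change was -1.50 to -1.01 when each sample was left out in turn. Without 13.5 dpc replicate 3 (adjusted p = 0.0516) or 15.5 dpc replicate 3 (adjusted p = 0.0568) the gene was just above the threshold, at log2 fold changes of -1.19 and -1.18.

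*Igfbp4*, on chromosome 11 from 99041244 to 99054392, encodes the main substrate of PAPP-A and was the most abundant of the 10 genes at both stages. The 13.5 dpc samples had 10640, 10130 and 9742 normalised counts, the 15.5 dpc samples 8813, 6813 and 7366, and the stages did not overlap. The mean fell from 10170 ± 448.1 to 7664 ± 1033 (SD, n = 3 per stage), a change of -0.41 on the log2 scale (SE 0.12, edgeR adjusted p = 0.0452). This call was not stable. The adjusted p was 0.0562 with another scaling (RLE), 0.096 with the length trend removed, and 0.117 to 0.169 without any 1 of the 13.5 dpc samples or without 15.5 dpc replicate 3, while the log2 fold change kept within -0.63 and -0.31 over all settings run.

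*Igfbp7*, on chromosome 5 from 77349240 to 77408045, encodes a secreted protein of basement membranes and vessel walls. The 13.5 dpc samples had 248.8, 288.9 and 282.3 normalised counts, the 15.5 dpc samples 844.2, 512.3 and 635.9. The lowest 15.5 dpc sample was well above the highest 13.5 dpc sample. The mean rose from 273.3 ± 21.5 to 664.1 ± 167.7 (SD, n = 3 per stage), a change of 1.28 on the log2 scale (SE 0.19, edgeR adjusted p = 0.00418) or 2.42-fold higher. The rise passed the threshold in each of the 13 alternative fits run, with log2 fold changes of 1.01 to 1.45. Of its exon bases, 85 overlap exons of *Polr2b* on the opposite strand.

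*Igfbp6*, on chromosome 15 from 102144362 to 102149511, encodes the family member with the lowest affinity for IGF-I, and it was the scarcest binding protein of the list. Raw counts were 74, 74 and 80 in the younger and 124, 82 and 117 in the older pancreata, which scale to 67.4, 63.5 and 57.5 against 171.6, 83.9 and 147.3 normalised counts. All 15.5 dpc samples were higher, and replicate 2 was only slightly so. The mean rose from 62.8 ± 5.0 to 134.3 ± 45.3 (SD, n = 3 per stage), a change of 1.09 on the log2 scale (SE 0.26, edgeR adjusted p = 0.0262). The adjusted p was 0.0855 to 0.108 without any 1 of the 13.5 dpc samples or without 15.5 dpc replicate 3, at log2 fold changes of 1.01 to 1.14, and 0.00955 with the length trend removed, at 0.80.

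*Igfbp2*, on chromosome 1 from 72824503 to 72852474, and *Igfbp3*, on chromosome 11 from 7206086 to 7213923, encode binding proteins known as fetal and as the main serum carrier, respectively. For *Igfbp2* the 13.5 dpc samples had 1317, 1237 and 1261 normalised counts, the 15.5 dpc samples 1417, 943.9 and 1111, and the stages overlapped through 15.5 dpc replicate 1. Its log2 fold change was -0.14 (SE 0.15, edgeR adjusted p = 0.515), and -0.30 (adjusted p = 0.0199) with the length trend removed. It was -0.31 (adjusted p = 0.0399) without 15.5 dpc replicate 1 and 0.003 (adjusted p = 0.982) without replicate 2 of that stage. In normalised counts, *Igfbp3* was the steadiest of the 10 genes within both stages. The 13.5 dpc samples had 1936, 1968 and 1913 normalised counts, the 15.5 dpc samples 1717, 1899 and 1827, with coefficients of variation of 1.42% and 5.04%. Its log2 fold change was -0.095 (SE 0.084, edgeR adjusted p = 0.422), and -0.12 to -0.06 when each sample was left out. With library size only it was -0.30 (edgeR adjusted p = 0.0844).

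*Igfbp2* and *Igfbp5* are neighbours on chromosome 1, 5457 bases apart at their 3′ ends and on opposite strands. The log2 fold change was -0.14 for *Igfbp2* and -1.22 for *Igfbp5*. The same arrangement holds on chromosome 11 for *Igfbp3* and *Igfbp1*, which are 3539 bases apart. *Igfbp1*, the binding protein that the liver makes under fasting, had 16.7 ± 3.5 normalised counts at 13.5 dpc and 7.5 ± 3.2 at 15.5 dpc (SD, n = 3), a change of -1.20 on the log2 scale (SE 0.36, edgeR adjusted p = 0.0508) on very few counts.

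*Pappa*, on chromosome 4 from 65124174 to 65357509, encodes the protease PAPP-A and was the lowest of the 10 genes in TPM. Raw counts were 78, 105 and 150 in the younger and 32, 123 and 49 in the older pancreata, which scale to 71.1, 90.0 and 107.7 against 44.3, 125.8 and 61.7 normalised counts. The 15.5 dpc samples held both the highest and the lowest value. On the log2 scale the stages differed by -0.19 (SE 0.36, edgeR adjusted p = 0.719). The difference was 0.08 (adjusted p = 0.856) without 15.5 dpc replicate 1 and -0.75 (adjusted p = 0.034) without replicate 2, so that its direction depended on single samples.

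**Figure D2:**
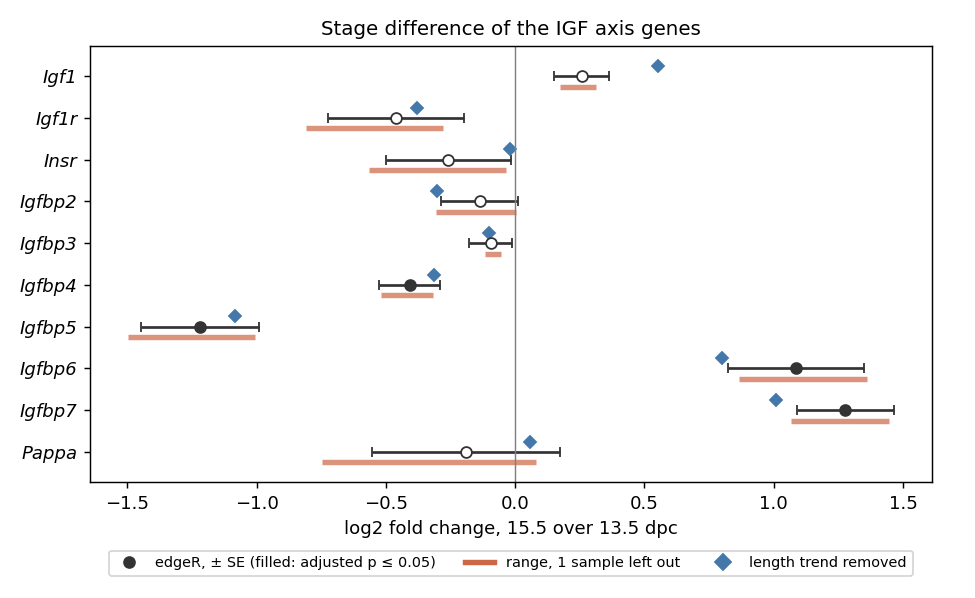
Log2 fold change of each gene from 13.5 to 15.5 dpc (horizontal axis) with its standard error, filled where the adjusted p is at or below 0.05; orange bars span the fits that each left out 1 sample and blue diamonds give the fit with the length trend removed. *Igfbp5*, *Igfbp6* and *Igfbp7* lie more than 0.8 from 0 in the main fit, and the bars of *Igfbp2* and *Pappa* cross 0.

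Across genes the levels were compared in TPM, within a stage. At 13.5 dpc the order was *Igfbp4* (513.9 ± 10.7 TPM, SD, n = 3), *Igfbp5* (323.2 ± 21.7), *Igfbp2* (153.7 ± 4.9), *Igfbp3* (138.3 ± 2.8), *Igf1* (53.4 ± 3.1), *Igfbp7* (50.4 ± 4.8), *Igf1r* (28.7 ± 6.2), *Insr* (16.2 ± 1.4), *Igfbp6* (12.6 ± 0.68) and *Pappa* (1.82 ± 0.42). Only *Igf1* and *Igfbp7* overlapped among neighbours in this order. By mean TPM *Igfbp4* ranked 168 and *Igfbp5* 371 of 21131 protein-coding genes, whereas *Igf1r* ranked 5953 and *Pappa* 12857.

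At 15.5 dpc *Igfbp4* was still first with 271.5 ± 22.2 TPM (SD, n = 3) and rank 409. It was followed by 4 binding proteins at close levels, *Igfbp5* with 103.6 ± 54.7, *Igfbp2* with 97.0 ± 0.93, *Igfbp3* with 93.0 ± 23.5 and *Igfbp7* with 84.2 ± 3.4 TPM. The samples of *Igfbp5*, *Igfbp2* and *Igfbp3* overlapped, as did those of *Igfbp7* with *Igfbp3* and with *Igfbp5*, so the order of these pairs is not resolved. *Igfbp2* lay above *Igfbp7* in every sample. *Igf1* had 46.1 ± 14.3, *Igfbp6* 18.4 ± 3.7, *Igf1r* 15.4 ± 8.8, *Insr* 10.1 ± 5.6 and *Pappa* 1.20 ± 0.87 TPM. *Igfbp6* lay above *Igf1r* and *Insr* in replicates 1 and 3 and below both in replicate 2, so its place is not resolved. *Igfbp7* moved from rank 3706 to 1654 and *Igfbp5* from 371 to 1312. TPM are shares of all transcripts, and the 7 acinar marker genes alone held 13720 to 17690 TPM at 13.5 dpc and 91740 to 138000 at 15.5 dpc, so the scales differ: *Igf1* was higher at 15.5 dpc in normalised counts and lower in mean TPM.

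**Figure D3:**
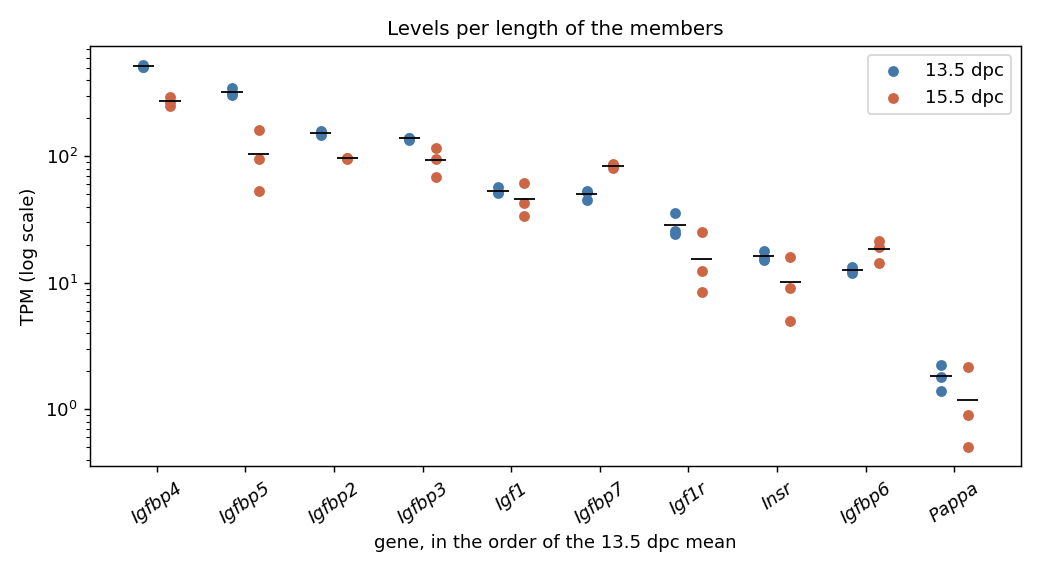
TPM of the 10 genes (vertical axis, log scale) in each sample at 13.5 dpc (blue) and 15.5 dpc (orange), with genes ordered by their 13.5 dpc mean and lines at the stage means. *Igfbp4* is the highest gene at both stages, and *Igfbp6* and *Igfbp7* are those whose mean is higher at 15.5 dpc on this scale.

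The makeup of the binding protein transcripts was described as the share of each gene in the summed TPM of *Igfbp2* to *Igfbp7*, a quantity within a sample. *Igfbp4* held 43.1 ± 1.42% at 13.5 dpc and 40.9 ± 2.51% at 15.5 dpc (SD, n = 3). The share of *Igfbp5* was 26.0, 26.8 and 28.5% at 13.5 dpc and 9.29, 21.2 and 14.4% at 15.5 dpc. That of *Igfbp7* was 3.79, 4.49 and 4.39% at 13.5 dpc and 15.2, 10.5 and 12.8% at 15.5 dpc. Both differed between the stages in every sample, in opposite directions. The share of *Igfbp6* was 1.06 ± 0.07% and 2.83 ± 0.82%, that of *Igfbp2* 12.9 ± 0.28% and 14.7 ± 1.99%, and that of *Igfbp3* 11.6 ± 0.21% and 13.8 ± 1.64% at 13.5 and 15.5 dpc, respectively. The summed level of the 6 genes was 1192 ± 23.8 TPM at 13.5 dpc and 667.7 ± 94.9 TPM at 15.5 dpc. In normalised counts their sum was 22403 ± 229 and 15166 ± 477 (SD, n = 3).

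**Figure D4:**
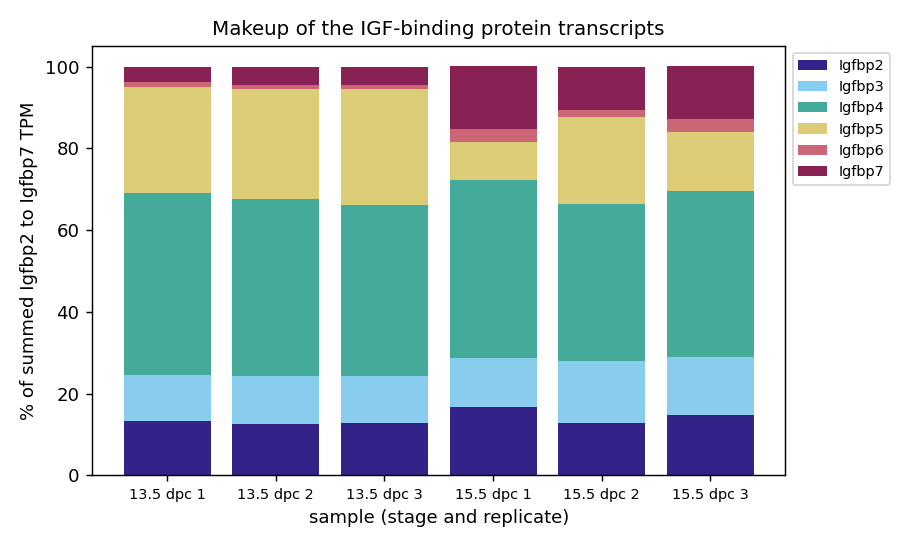
Share of each binding protein gene in the summed TPM of *Igfbp2* to *Igfbp7* (vertical axis, percent) for each sample. *Igfbp5* shrinks from 26.0 to 28.5% of the bar at 13.5 dpc to 9.29 to 21.2% at 15.5 dpc, and *Igfbp7* grows from 3.79 to 4.49% to 10.5 to 15.2%.

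Within 15.5 dpc the 10 genes split by exon length. The log2 difference of replicate 1 from replicate 2 was positive for the 3 shortest genes, at 1.03 for *Igfbp6* (1112 exon bases), 0.72 for *Igfbp7* (1213) and 0.59 for *Igfbp2* (1847). It was negative for the 4 longest, at -0.995 for *Igfbp5* (6006), -1.06 for *Insr* (9633), -0.27 for *Igf1* (9904) and -1.50 for *Pappa* (11027). Over all genes tested, the median of this difference was 0.52 for genes of over 1000 and up to 2000 exon bases and -0.77 for those over 10000. *Igf1r* (4489 in the deposited model) was at -0.96. *Igfbp4* (4416) went against the trend with 0.37, where genes of over 4000 and up to 6000 bases had a median of -0.23. With the length trend of each library removed, the length-adjusted normalised counts of *Igfbp5* were 8104, 8125 and 8320 against 3043, 4796 and 3741, and those of *Igfbp7* were 261.3, 307.1 and 317.1 against 631.4, 556.2 and 594.8. The log2 difference of replicate 1 from replicate 2 grew in size for *Igf1* (-0.27 to 0.35), *Igfbp4* (0.37 to 0.52) and *Igfbp3* (-0.15 to -0.21). It shrank in size for the other genes of the list. *Igfbp5* (log2 fold change -1.08, adjusted p = 0.00128, edgeR), *Igfbp6* (0.80, adjusted p = 0.00955) and *Igfbp7* (1.01, adjusted p = 0.000275) passed the threshold in this fit as well, *Igfbp4* did not, and *Igf1* and *Igfbp2* did.

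**Figure D5:**
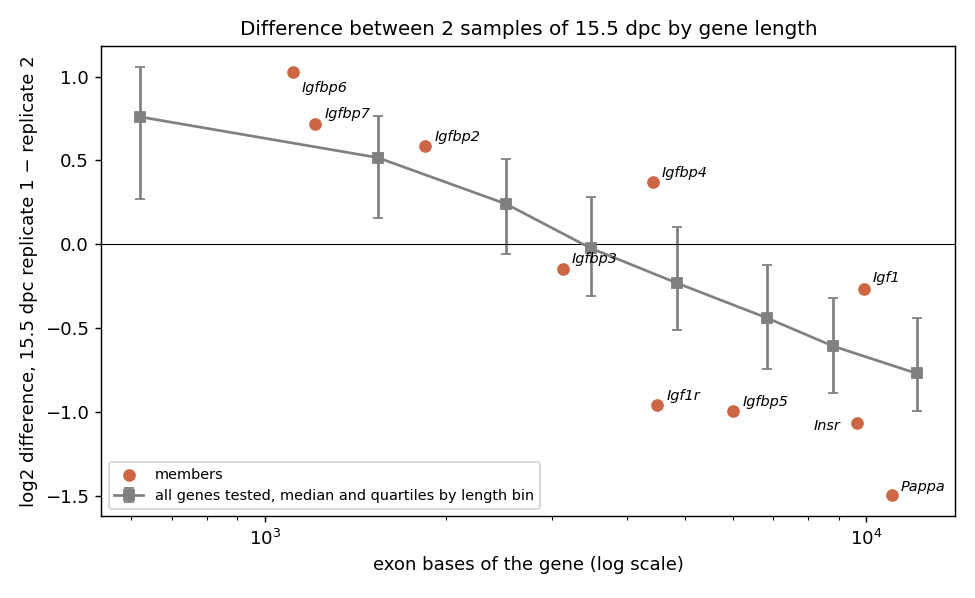
Log2 difference in normalised counts between 15.5 dpc replicates 1 and 2 (vertical axis) against exon bases (horizontal axis, log scale) for the 10 genes (orange) and, as medians with quartiles, for all genes tested in 8 bins of length (grey). The 3 shortest of the 10 genes lie above 0 and the 4 longest below it, while *Igfbp4* lies above the medians around it.

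Since the samples are whole organs, the genes were set beside cell type markers. The 9 mesenchyme markers had a median log2 fold change of -0.22, with 2 higher (*Dcn* and *Lum*) and 2 lower (*Pdgfra* and *Twist1*). Their summed level was 4252 to 4932 TPM at 13.5 dpc and 1979 to 3941 at 15.5 dpc. The 6 endothelial markers had a median of 0.045, with none called either way by edgeR at an adjusted p at or below 0.05. Of the 9 epithelial markers 5 were higher and 1 lower (*Sox9*), with a median of 0.43, and all 7 acinar markers were higher. Of the 5 smooth muscle and pericyte markers *Acta2* (0.96) and *Tagln* (1.13) rose and *Rgs5* (-0.85) fell. The erythroid markers summed to 3741 to 4398 TPM at 13.5 dpc and 144.7 to 179.9 at 15.5 dpc, with 1 of 5 higher and 3 lower, and 2 of 4 immune, 3 of 5 neural and glial, 2 of 5 liver and 2 of 6 endocrine markers were lower, with none of these higher. Of the gut, stomach and spleen markers 2 of the 3 tested were lower, *Tlx1* (-1.22) and *Barx1* (-0.72), and their list summed to 156.2 to 168.9 TPM at 13.5 dpc and 64.27 to 68.78 at 15.5 dpc. Of the 4 mesothelial markers *Msln* (2.00) rose and *Wt1* (-0.75) fell. No gene of the lists was at 0 in all samples. The part of cell composition in the changes of the 10 genes was not tested.

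Relative to the mean log2 level of the mesenchyme markers in the same sample, the difference between the stages was -1.05 for *Igfbp5*, 1.48 for *Igfbp7* and 1.26 for *Igfbp6*, without overlap of the stages. It was -0.19 for *Igfbp4*, with overlap, and 0.48 for *Igf1*, without overlap. For these genes the reference mattered: *Igf1* was at 0.20 without overlap relative to endothelial and at -0.16 with overlap relative to epithelial markers, and *Igfbp4* was at -0.47 and -0.83, both without overlap. *Igfbp3* changed direction with the reference, at 0.13 relative to mesenchyme, -0.15 to endothelial and -0.51 to epithelial markers, each without overlap. *Igfbp2* did so too, at 0.07, -0.21 and -0.57, where only the last was without overlap. Relative to the endothelial markers the difference was -1.33 for *Igfbp5* and 1.20 for *Igfbp7*, again without overlap. The mesenchyme reference itself moved by -0.23 and the endothelial one by 0.05 on the log2 scale. Single markers of the mesenchyme ranged from -1.33 (*Pdgfra*) to 0.61 (*Dcn*). Relative to the epithelial markers, which moved by 0.41, the difference was -1.68 for *Igfbp5* and 0.84 for *Igfbp7*, both without overlap, and 0.62 for *Igfbp6*, with overlap.

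The other genes of the axis were taken from lists of 54 genes by role, and 53 of them had enough counts to be tested. Of these, 5 were higher and 5 lower at an adjusted p at or below 0.05 (background 11.6% higher and 10.7% lower), with a median log2 fold change of -0.12. The 10 genes called were also followed through the 13 alternative fits, which was decided after seeing the data. *Stc2* (1.17 to 1.53), *Igfbpl1* (-1.40 to -1.09) and *Irs1* (-1.19 to -0.74) were called in all 13. *Igf2bp1* (-0.98 to -0.52) was called in 10, *Igfals* (0.68 to 1.06), *Insrr* (0.50 to 0.85), *Socs2* (-0.84 to -0.36) and *Gab1* (-0.67 to -0.36) in 9, and *Ghr* (0.18 to 0.65) and *Akt1* (0.09 to 0.37) in 6. None of these 10 changed direction, and *Socs2* was the one not called with the length trend removed (-0.36, edgeR adjusted p = 0.109). Among the other binding proteins *Igfals*, whose product stabilises the ternary IGF complex of serum, rose by 0.90 (SE 0.18, edgeR adjusted p = 0.0143). The IGFBP-related gene *Igfbpl1* changed by -1.18 (SE 0.16, edgeR adjusted p = 0.00321), from 271.5 ± 12.3 to 120.1 ± 25.4 normalised counts (SD, n = 3).

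Of the proteases and their inhibitors, only *Stc2* passed. It encodes stanniocalcin-2, an inhibitor of PAPP-A, and rose from 212.4 ± 13.6 to 558.4 ± 68.9 normalised counts (SD, n = 3 per stage), a change of 1.39 on the log2 scale (SE 0.125, edgeR adjusted p = 0.000835). The related *Stc1* had -0.51 (adjusted p = 0.244), the protease genes *Pappa2* 0.25 (adjusted p = 0.61), *Htra1* -0.16 (adjusted p = 0.267) and *Adam12* -0.35 (adjusted p = 0.276), and *Adam28* did not pass the filter, with a mean of 0.61 normalised counts at 13.5 dpc. *Pappa2* shares 310 exon bases with *1600012P17Rik* on the same strand.

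The orphan receptor gene *Insrr*, a relative of *Insr*, rose by 0.70 (SE 0.14, edgeR adjusted p = 0.0133), from 214.7 ± 25.7 to 349.8 ± 43.8 normalised counts (SD, n = 3). *Furin* (-0.11) and *Pcsk6* (-0.08), which encode convertases, of which furin cleaves the receptor precursors, did not pass. In the growth hormone arm, which controls *Igf1* after birth, the receptor gene *Ghr* rose by 0.38 (edgeR adjusted p = 0.0376) and the feedback inhibitor *Socs2* changed by -0.63 (edgeR adjusted p = 0.0126). *Jak2* (-0.04), *Stat5a* (0.09) and *Stat5b* (-0.21) did not pass.

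Downstream of the receptors, *Irs1*, which encodes a main docking protein, fell from 642.6 ± 22.4 to 321.6 ± 61.0 normalised counts (SD, n = 3 per stage), a change of -0.99 on the log2 scale (SE 0.14, edgeR adjusted p = 0.00412). Of the exon bases of *Irs1*, 2822 overlap *Gm9747* on the opposite strand, and the count is uncertain where strand was not used. *Gab1* changed by -0.47 (edgeR adjusted p = 0.0201), and the other 8 of the 10 substrate and adaptor genes did not pass. Of the 24 genes of the PI3K-AKT-mTOR relay 1 passed, *Akt1*, at 0.30 (edgeR adjusted p = 0.0474), and the median of the relay was -0.09. Of the Igf mRNA-binding proteins, which keep fetal transcripts stable, *Igf2bp1* changed by -0.79 (edgeR adjusted p = 0.014), whereas *Igf2bp2* (-0.45, adjusted p = 0.112) and *Igf2bp3* (-0.29, adjusted p = 0.0934) did not pass.

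For the 3 genes with the lowest p, the genes of most similar profile were sought by the root mean square distance of centred log2 normalised counts over the 6 samples. *Fam174b* (0.03) and *Syne4* (0.04) were nearest to *Igfbp7*, *Ltbp1* (0.06) and *Arnt2* (0.06) to *Igfbp5*, and a gene without a symbol (0.08) and *Gsta4* (0.09) to *Igfbp6*. Within a distance of 0.1 lay 29 genes for *Igfbp7*, 19 for *Igfbp5* and 2 for *Igfbp6*. With 6 samples that differ by stage and, at 15.5 dpc, by gene length, such likeness is a description only.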

How the data were processed

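Wild-type pancreata of 13.5 and 15.5 dpc were measured by strand-specific, poly(A)-enriched, single-end RNA Seq, 3 samples per stage. The authors aligned reads to mm10 with GSNAP, assigned uniquely placed reads to Ensembl genes by featureCounts (1.4.6), and deposited the raw count and exon length of each gene, not normalised. Whether counting used the strand is not given in the sources used here. Symbols came from GENCODE M21, and 35449 of 37224 identifiers matched.

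Counts were filtered with filterByExpr, scaled with TMM factors (0.847 to 1.08) and tested with edgeR 4.0.16 (R 4.3.3) by the quasi-likelihood test, all 6 samples, without covariates. SE was taken as |log2 fold change| over the square root of the F statistic. TPM were computed from the deposited counts and exon lengths. Total counts were 10546028 to 16389237 per sample. Replicates of a stage differed by more than counting noise (chi-square per gene 1.61 to 63.5). Members and lists were chosen with earlier results of these data known. Named were all members, every gene of the short role lists and, of the substrate and relay lists, the 2 most changed genes called in each direction; the marker genes named were chosen after their values were seen. Alternatives were RLE or library-size scaling, DESeq2 1.42.0, no filter, taking genes above 1% of a sample's counts out of the scaling, removal of a lowess trend with gene length (span 0.5), the replicate number as a block, and each sample left out. Only the main fit and the fit with the length trend removed were tried on simulated counts. The spread between simulated samples was set below that of these data (common coefficient of variation 0.15), and the outcome is not used here. Shared 50-base windows were at most 1.72% of any member's. Promoters are from RefSeq.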

Additional observations from a re-analysis of the deposited data

How the results depend on the processing

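Under 13 alternative fits, 107 of 130 member results kept their direction and side of the threshold, 13 lost and 7 gained a call, and 3 changed direction. *Igfbp7* kept its call in all 13. Of the members, 1 was called lower rather than 2 with RLE scaling and in the fit with a replicate block. The block gave 2676 calls over all genes against 3467. Same-numbered samples correlated at 0.204, -0.202 and 0.030 in their deviations. These values give no sign of pairing by number, and the sample names do not say what the numbers mean. Of the other axis genes, 5 were higher and 5 lower, against 2 and 11 with library size only (which moved the median of all genes to -0.222), 8 and 8 with DESeq2, and 10 and 9 with the length trend removed. The share called over all genes moved as well, from 22.3% to 26.2% (1133 higher and 2952 lower), 27.5% and 32.8%, respectively. With the length trend removed *Pappa* changed direction, at 0.059. Leaving out each sample gave 1 to 7 members called, 1 to 3 higher and 0 to 5 lower; 1 to 2 higher and 1 to 2 lower by the study's thresholds; and 1 to 8 higher and 2 to 21 lower of the other axis genes. Over all genes it gave 1235 calls (without 13.5 dpc replicate 1) to 7620 (without 15.5 dpc replicate 2). The log2 fold change then ranged from -0.308 to 0.003 for *Igfbp2* and from -0.745 to 0.082 for *Pappa*. The highest number of members called came without 15.5 dpc replicate 2, and the lowest without 13.5 dpc replicate 3 or 15.5 dpc replicate 3. The causes were not tested. *Igfbp6* and *Pappa* had the lowest counts, 32 to 150 per sample.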
